A study of Mus musculus with 8 samples.

Results

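The solute carrier (SLC) genes expressed in resting mouse lymphocytes were compared between B cells and T cells, at the level of mRNA and of ribosome footprints. They were the protein-coding genes whose symbol is Slc followed by a family number and a letter, leaving out Slc40a1, Slc11a2 and Slc35a4, that had at least 200 counts in at least 2 of the 4 RNA-seq libraries. Of the 368 protein-coding symbols of that form, 98 met this rule, among 53801 gene IDs in the deposited tables. Of the 98, 95 were classed as carriers by family number, among them Slc3a2, the heavy chain of an amino acid transporter. The other 3 carry an Slc symbol without being transporters: Slc9a3r1, a scaffold protein, Slc4a1ap and Slc7a6os. In the RNA-seq data 69 genes met the rule through all 4 libraries, 5 through B cells only, 11 through T cells only and 13 through another mixture. Just outside the rule, the second-highest RNA-seq counts were 193 for Slc31a1, 195 for Slc6a20b and 196 for Slc25a23. Just inside, they were 200 for Slc35a3, 201 for Slc39a11 and 201 for Slc35g1.

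The cells were total B cells and total T cells of the spleen of B6 mice. They were isolated with Miltenyi magnetic kits and then kept for 2 hours in complete RPMI. There were 2 B cell and 2 T cell libraries of each assay. RNA-seq measured mRNA, with libraries numbered 1 and 3 for B cells and 1 and 4 for T cells. Ribosome profiling sequenced the mRNA fragments protected by ribosomes, with libraries numbered 1 and 3 for B cells and 1 and 2 for T cells, after 15 minutes of cycloheximide at 100 µg/ml to hold ribosomes in place. No treatment or mutation set the groups apart. Whether the paired libraries came from different animals is not stated, so the p-values speak only for the spread among these libraries.

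SLC proteins move amino acids, sugars, ions, metals, nucleosides, vitamins and metabolic intermediates across the plasma membrane and the membranes of organelles. Lymphocytes leaving the resting state take up more glucose and amino acids, for which carriers such as Slc2a1, Slc1a5 and the heterodimer of Slc7a5 with Slc3a2 are best known. Other members work inside the cell, in lysosomes, in the Golgi apparatus or, for nearly the whole Slc25 family, in the inner mitochondrial membrane.

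Library totals were 8989740 to 9466190 counts in B cell RNA-seq and 8945905 to 10050986 in T cell RNA-seq. Footprint totals were 232568 and 236810 counts in B cells, against 136433 and 627833 counts in T cells. The 98 genes held 0.625% to 0.712% of counts in RNA-seq and 0.453% to 0.621% in footprints. At least 10 counts were found for 95 to 98 of them in each RNA-seq library, against 32 and 36 in the B cell footprint libraries and 72 and 21 in the T cell footprint libraries 1 and 2. The sort was checked with 12 B cell and 12 T cell markers, all of them detected in RNA-seq in their own lineage. T cell markers stood in B cell RNA-seq libraries 1 and 3 at a median of 0.824% and 10.4% of their T cell mean, and in B cell footprint libraries 1 and 3 at 1.23% and 4.52%. B cell markers stood in T cell RNA-seq libraries 1 and 4 at 0.674% and 1.59% of their B cell mean, and in T cell footprint libraries 1 and 2 at 1.56% and 4.77%. The 6 natural killer markers summed to 10.2 and 48.9 CPM in B cell RNA-seq, against 134 and 177 CPM in T cell RNA-seq, and their part in the genes lower in B cells was not tested. B cell footprint libraries 1 and 3 were uneven in such markers. Natural killer markers summed there to 60.8 and 400 CPM, those of monocytes, macrophages and neutrophils to 201 and 836 CPM, and 6 plasma cell markers to 2312 and 4433 CPM. In T cell footprint libraries 1 and 2 these sums were 538 and 605, 252 and 422, and 432 and 764 CPM. Their part in the footprint results was not tested. In bulk samples, fewer cells of a type and less RNA per cell cannot be told apart.

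The SLC genes that differed in both mRNA and footprints were Slc15a4, higher in B cells, and Slc12a7 and Slc9a9, lower in B cells. Of these, Slc9a9 met the count rule through T cells only, so its raw RNA-seq counts had to be lower in B cells. Slc15a4 is a proton-coupled transporter of histidine and small peptides in endosomes and lysosomes, needed for signalling by nucleic acid-sensing Toll-like receptors in mouse B cells and plasmacytoid dendritic cells. Slc12a7 is a potassium and chloride cotransporter, and Slc9a9 a sodium and proton exchanger of endosomes. Beside Slc12a7 on chromosome 13 lies Slc6a19, a sodium-dependent neutral amino acid transporter known from kidney and intestine, with 32.3 kb and no protein-coding gene between the gene spans of the 2 in RefSeq. Its mRNA was also lower in B cells. For these 4 genes the 250 bases before a transcription start in RefSeq's promoter windows on GRCm38.p6 are shown 5′ to 3′ on the strand of the gene, with CG dinucleotides in capitals, because CG content is a main way in which promoters differ. The window of Slc15a4 is chr5:127617393-127617642 on the minus strand. That of Slc12a7, which has 2 listed windows of which 1 is shown, is chr13:73763410-73763659 on the plus strand. Those of Slc9a9 and Slc6a19 are chr9:94669642-94669891 on the plus strand and chr13:73692637-73692886 on the minus strand. These starts lie inside the RefSeq gene spans, which reach further upstream by 15.9 kb for Slc15a4, 30.6 kb for Slc12a7, 335 bases for Slc9a9 and 8.1 kb for Slc6a19, and sequence at the outer ends is not shown.
Slc15a4: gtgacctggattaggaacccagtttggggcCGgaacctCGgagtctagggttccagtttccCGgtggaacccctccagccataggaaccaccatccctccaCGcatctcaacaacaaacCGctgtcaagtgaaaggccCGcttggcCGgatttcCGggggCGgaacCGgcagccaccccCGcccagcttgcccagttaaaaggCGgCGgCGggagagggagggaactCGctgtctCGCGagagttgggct
Slc12a7: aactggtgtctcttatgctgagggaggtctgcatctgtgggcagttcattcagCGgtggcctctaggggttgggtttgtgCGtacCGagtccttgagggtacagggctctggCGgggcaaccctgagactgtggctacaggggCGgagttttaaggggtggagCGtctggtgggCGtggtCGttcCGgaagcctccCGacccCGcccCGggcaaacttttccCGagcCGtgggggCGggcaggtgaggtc
Slc9a9: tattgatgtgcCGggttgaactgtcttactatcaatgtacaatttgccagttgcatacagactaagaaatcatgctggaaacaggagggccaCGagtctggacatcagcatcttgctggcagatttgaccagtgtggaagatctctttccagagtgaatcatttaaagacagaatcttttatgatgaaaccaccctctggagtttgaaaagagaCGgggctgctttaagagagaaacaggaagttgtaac
Slc6a19: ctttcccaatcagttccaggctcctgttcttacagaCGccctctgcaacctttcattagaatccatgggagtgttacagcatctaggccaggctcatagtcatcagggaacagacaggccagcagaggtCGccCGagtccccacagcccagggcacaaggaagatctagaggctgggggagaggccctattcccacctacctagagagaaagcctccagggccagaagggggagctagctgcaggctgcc

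The windows of Slc15a4 and Slc12a7 held 17 and 15 CG dinucleotides, and those of Slc9a9 and Slc6a19 held 3 each. The median over 27018 RefSeq windows was 6 and that over the 73 SLC genes with a window was 15. The 27018 windows were not limited to expressed genes, while the SLC genes were chosen by RNA-seq counts. Neither this contrast nor the motif shares below can therefore be read as particular to SLC genes. The median was 13 in the 9 windows of genes with higher mRNA in B cells, 12.5 in the 10 of genes with lower mRNA and 15.5 in the other 54. The E-box CACGTG, which reads the same on both strands, was in 8 of 73 SLC windows (11%) and 6.05% of all windows. The sequence TGATGNAAT, a core of amino acid response elements, was on either strand in 0 of 73 and in 0.825% of all windows. Neither was in the 4 windows shown.

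In mRNA, B cells had higher levels than T cells for 14 of the 98 genes and lower levels for 12, at an adjusted p under 0.05, in edgeR's quasi-likelihood test with Benjamini-Hochberg adjustment over all 13929 genes tested. Over all genes tested, 18.5% passed the test, 9.4% higher and 9.06% lower in B cells. Over the 7021 protein-coding genes that met the same count rule, 21.2% passed, 11.6% higher and 9.61% lower. The 98 genes were chosen by their RNA-seq counts, so their mRNA results are a description. In genes that met the rule through 1 cell type, this fixed the direction of raw counts, though not the size of the difference. Among genes that passed, these were Slc20a2, Slc25a53 and Slc37a2 through B cells only. Through T cells only they were Slc6a19, Slc9a9, Slc16a5, Slc35g1 and Slc39a11. Of the 69 genes that met it through all 4 libraries, 7 were higher and 6 lower. The median log2 difference of the 98 genes, B over T cells, was -0.02, against -0.01 over all genes. In 63 of the 98 the fitted difference was under 1.5-fold, and in 21 of the 26 that passed it was 2-fold or more. The libraries of B and T cells did not overlap in any of the 26, nor in any of the 2572 genes that passed in the whole table. Without B cell library 1 the counts were 8 higher and 8 lower, and without B cell library 3 they were 7 higher and 9 lower.

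Leaving out a library leaves 1 library in its group, which is then assumed to vary like the other group, with 1 residual degree of freedom. Of the 26 genes, 14 passed without each of the 4 RNA-seq libraries in turn, among them Slc15a4, Slc16a6, Slc20a2, Slc25a37 and Slc30a5, higher in B cells, and Slc6a19, Slc9a9, Slc12a7, Slc16a5, Slc17a9, Slc29a1 and Slc35g1, lower in B cells. The other 12 missed the threshold without at least 1 library, at adjusted p from 0.0501 to 0.231. Slc4a7, Slc29a3, Slc35b1 and Slc39a11 did so whichever library was left out. Slc25a53 and Slc38a9 did so without either B cell library or T cell library 1, Slc25a12 without either B cell library or T cell library 4, and Slc9a3r1 without B cell library 1 or either T cell library. Slc37a1 and Slc37a2 did so without either B cell library, Slc38a6 without library 1 of either cell type, and Slc35c2 without B cell library 3. In edgeR's fit of all 8 libraries, Slc17a9, Slc25a12, Slc29a3, Slc30a5, Slc35b1, Slc37a1 and Slc38a6 missed the threshold, at adjusted p from 0.057 to 0.182. With no filter on low counts, Slc4a7, Slc6a19, Slc16a5, Slc25a12, Slc29a3, Slc35b1 and Slc38a6 did, at 0.052 to 0.076, and with upper-quartile scaling Slc29a3 and Slc35b1 did, at 0.053 and 0.069.

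Whether counting used the strand was not given in the sources used here, so counts of genes that overlap another annotated gene are uncertain. This applies to 44 of the 98 SLC genes and to 15 of the 26 that passed in mRNA. Among genes described here, Slc15a3 overlaps Tmem132a, Slc16a6 overlaps Arsg, Slc20a2 overlaps Smim19 and Slc25a11 overlaps Rnf167. Slc25a53 overlaps Zcchc18, Slc39a11 overlaps Cog1 and Sstr2, and Slc6a19 overlaps Slc6a19os. Slc9a9 overlaps Mir7656, and Slc16a5, Slc17a9, Slc25a12, Slc25a37, Slc37a2 and Slc38a9 overlap genes with Gm symbols. Overlaps of the other genes are not all listed.

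**Figure D1:**
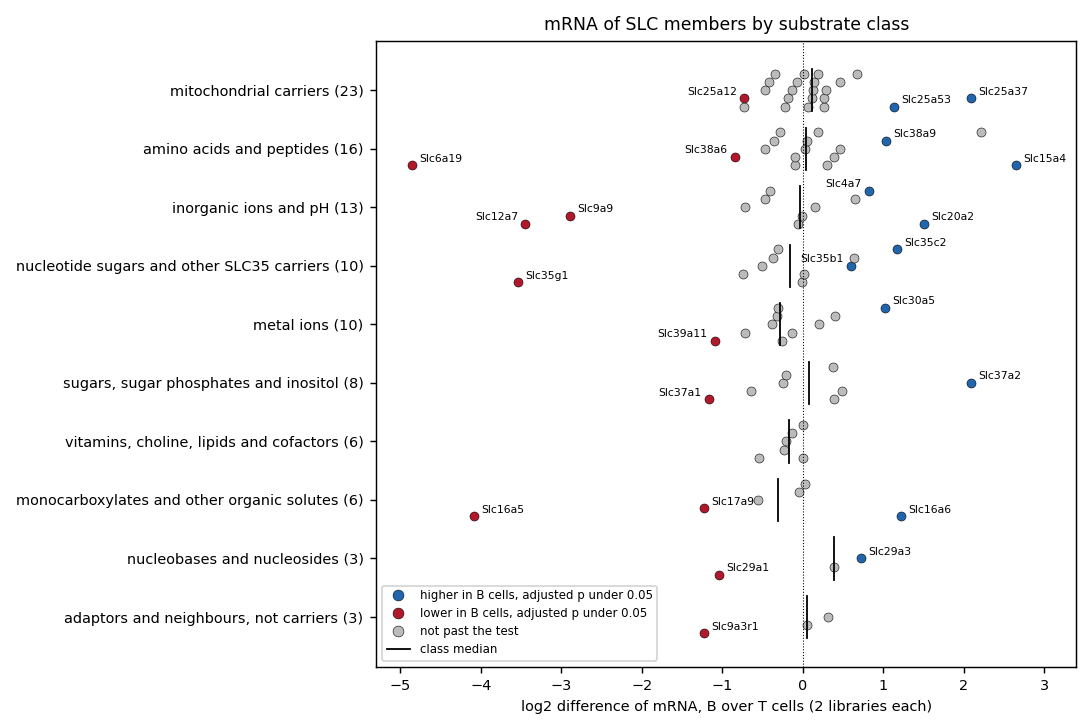
Each point is 1 of 95 SLC genes shown, placed on the horizontal axis by its log2 difference of mRNA, B over T cells, and in rows by substrate class with the number of genes in the class in parentheses. Blue and red points passed the test, higher and lower in B cells, grey points did not, and the vertical bar is the median of the whole class. The medians of the 10 classes lie between -0.30 and 0.39, while single genes run from -4.85 to 2.64.

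Members of the same family passed in opposite directions in several cases. The 95 carriers belonged to 34 numbered families, 17 of them with at least 2 of these carriers. In 7 families, 1 or more genes were higher and 1 or more lower in B cells, among them Slc16, Slc25, Slc29, Slc35, Slc37 and Slc38. In 8 families genes passed in 1 direction only. Many of these calls were not firm. Slc25a12, Slc25a53, Slc29a3, Slc35b1, Slc35c2, Slc37a1, Slc37a2, Slc38a6 and Slc38a9 missed the threshold without at least 1 library, as given above. Slc16a5, Slc25a53, Slc35g1 and Slc37a2 met the count rule through 1 cell type, which fixed the direction of their raw counts. No test was made of the family counts, and no share for other gene families was at hand.

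Among the 16 carriers of amino acids and peptides, Slc15a4 and Slc38a9 were higher and Slc6a19 and Slc38a6 lower in B cells, with a class median of 0.04. Slc15a4 had 132 and 125 CPM (counts scaled to library totals that were adjusted by TMM) in B cells, against 19.6 and 21.6 CPM in T cells. Both B cell libraries were high and both T cell libraries low, 6.25-fold apart (log2 2.64 ± 0.12 SE, adjusted p = 0.002). Slc15a4 overlaps Glt1d1 on chromosome 5, so its counts are uncertain. Slc15a3, the lysosomal relative of Slc15a4, had 27.6 and 30.8 CPM in B cells, against 3.15 and 9.40 CPM in T cells. Slc15a3 met the count rule through B cells only, so its raw counts had to be lower in T cells. The gene just missed the threshold (log2 2.22 ± 0.53, adjusted p = 0.051). It passed in DESeq2 (adjusted p = 0.00081), limma voom (0.023) and edgeR's fit of all 8 libraries (0.019), and with protein-coding genes alone (0.034). It also passed without T cell library 1 (log2 1.64, adjusted p = 0.022) and without T cell library 4 (log2 3.19, adjusted p = 0.005). Markers of monocytes, macrophages and neutrophils summed to 50.7 and 142 CPM in B cells, against 56.9 and 277 CPM in T cells, and the part of those cells in the value was not tested. Slc38a9, which senses lysosomal arginine for the growth kinase complex mTORC1, had 44.7 and 49.0 CPM in B cells, against 19.8 and 25.8 CPM in T cells (log2 1.04 ± 0.19, adjusted p = 0.028).

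On the other side, Slc6a19 mRNA had 0 and 1.75 CPM in B cells, against 26.7 and 24.9 CPM in T cells (log2 -4.85 ± 1.04, adjusted p = 0.039). It was thus absent from the counts of B cell library 1. Slc38a6, a member of the sodium-coupled neutral amino acid family, had 55.1 and 69.8 CPM in B cells, against 120 and 105 CPM in T cells (log2 -0.85 ± 0.17, adjusted p = 0.033). The carriers best known from lymphocyte activation did not pass in edgeR. Slc7a5, the light chain of the large neutral amino acid transporter, had 41.6 and 26 CPM in B cells, against 44.5 and 41.9 CPM in T cells (adjusted p = 0.425). Its heavy chain Slc3a2 had 294 and 180 CPM in B cells, against 245 and 140 CPM in T cells, so library 1 was the higher in both cell types and the groups overlapped (adjusted p = 0.643). Slc38a2, a glutamine and alanine carrier induced by amino acid shortage, had the same library order, with 201 and 157 CPM in B cells against 248 and 132 CPM in T cells (adjusted p = 0.890). The 6 plasma cell markers were also higher in RNA-seq library 1, summing to 2497 and 959 CPM in B cells, against 1188 and 145 CPM in T cells. In B cell footprints, library 3 was the higher. The part of plasma cells in these values was not tested. The glutamine carriers Slc1a5 (log2 0.38 ± 0.16, adjusted p = 0.182) and Slc38a1 (0.46 ± 0.12, adjusted p = 0.059) were above 0 without passing, while DESeq2 called Slc38a1 (adjusted p = 0.013). The cationic amino acid carrier Slc7a1 had a difference of 0.02 ± 0.21, and Slc7a6 and Slc43a2, carriers of cationic and of branched-chain amino acids, had -0.28 and -0.09, none of them past the test.

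Among the 13 carriers of inorganic ions and protons, 3 were higher and 2 lower, with a median of -0.03. Slc12a7 had 9.43 and 29.2 CPM in B cells, against 217 and 204 CPM in T cells, 10.9-fold apart (log2 -3.45 ± 0.56, adjusted p = 0.021). Its groups did not overlap, while Slc12a4, another member of the same branch, had a difference of -0.06 ± 0.18. Slc9a9 had 3.03 and 9.95 CPM in B cells, against 40.4 and 55.9 CPM in T cells (log2 -2.89 ± 0.58, adjusted p = 0.034). Of the phosphate carriers, Slc20a2 had 29.5 and 29.1 CPM in B cells, against 9.45 and 11.2 CPM in T cells (log2 1.5 ± 0.19, adjusted p = 0.011), while Slc20a1 had a difference of -0.72 ± 0.24 (adjusted p = 0.114) and passed without B cell library 1 (log2 -1.07, adjusted p = 0.035). Slc4a7, a sodium bicarbonate cotransporter, had 39.3 and 35.2 CPM in B cells, against 22.3 and 20.0 CPM in T cells (log2 0.82 ± 0.17, adjusted p = 0.035).

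The 5 genes with the largest negative differences, Slc6a19, Slc16a5, Slc35g1, Slc12a7 and Slc9a9, were all higher in B cell library 3 than in library 1, as were the T cell markers. All but Slc12a7 met the count rule through T cells only, so their raw RNA-seq counts had to be lower in B cells. In libraries 1 and 3 they stood at 4.47% and 13.9% of the T cell mean for Slc12a7, 6.30% and 20.7% for Slc9a9, 2.90% and 14.1% for Slc35g1, 1.26% and 10.4% for Slc16a5, and 0.0% and 6.77% for Slc6a19. The part of T cells among the sorted B cells in these values was not tested. Without B cell library 3 the log2 differences were larger, at -4.47 for Slc12a7, -3.98 for Slc9a9, -5.07 for Slc35g1 and -6.27 for Slc16a5. Slc6a19 then had no count in B cells.

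**Figure D2:**
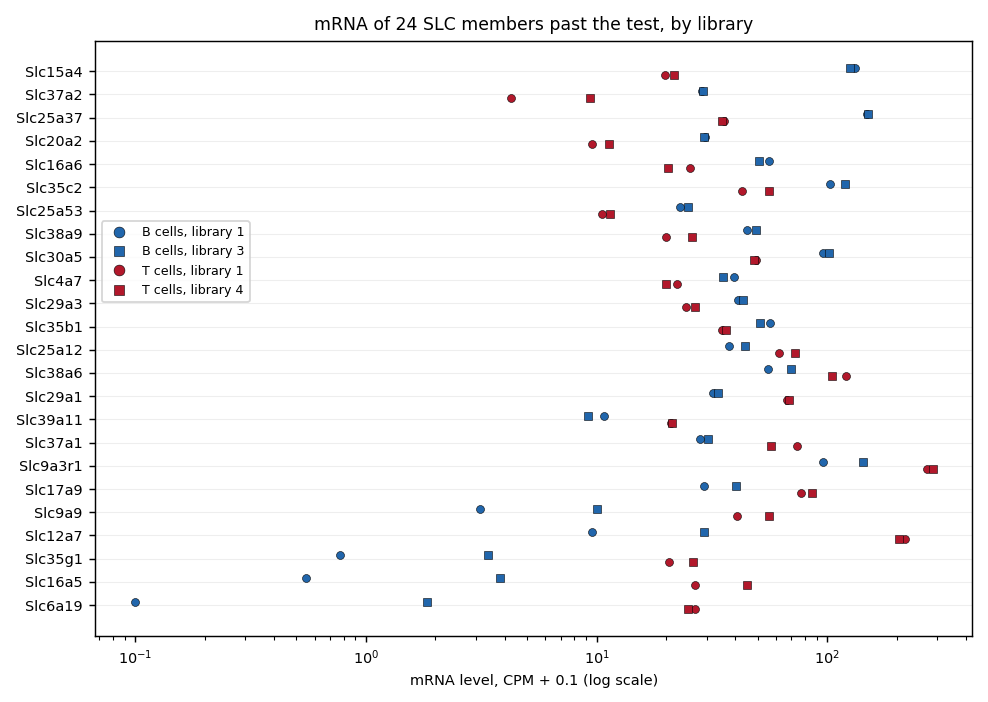
Each row is 1 of 24 SLC genes whose mRNA passed the test, from the highest to the lowest log2 difference, and each point is 1 library, in CPM plus 0.1 on a log axis. Blue points are B cells and red points T cells, with circles for library 1 and squares for B cell library 3 or T cell library 4. In no row do blue and red points overlap, which held for all 2572 genes past the test. In the 5 lowest rows B cell library 3 lies above B cell library 1.

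Among the 23 genes of the Slc25 family, all classed as mitochondrial carriers by family number, 3 were higher and 1 lower, with a median of 0.11. Slc25a37, an importer of iron for heme synthesis best known from red cell precursors, had 149 and 151 CPM in B cells, against 35.6 and 34.9 CPM in T cells (log2 2.09 ± 0.11, adjusted p = 0.002). The libraries of each group were nearly equal, and 7 erythroid markers summed to 3.37 and 14.4 CPM in B cells, against 1.83 and 14.3 CPM in T cells. Their part in the difference was not tested. Slc25a53, whose substrate is not established, had a difference of 1.13 ± 0.18 (adjusted p = 0.021). The aspartate and glutamate carrier Slc25a12 was lower in B cells (log2 -0.72 ± 0.16, adjusted p = 0.040). The carriers of general respiration did not pass: the phosphate carrier Slc25a3 had a difference of 0.11 ± 0.17, the ADP and ATP exchangers Slc25a4 and Slc25a5 had -0.42 ± 0.13 and -0.13 ± 0.21, and the citrate carrier Slc25a1 had 0.47 ± 0.19.

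Among 10 metal ion carriers, 1 was higher and 1 lower, with a median of -0.28. Slc30a5, which loads zinc into the secretory pathway, had 95.9 and 102 CPM in B cells, against 49.1 and 48.2 CPM in T cells (log2 1.02 ± 0.11, adjusted p = 0.009). Both B cell libraries were above both T cell libraries. Slc39a11, of the zinc importer family, was lower in B cells (log2 -1.09 ± 0.20, adjusted p = 0.027). The zinc importers Slc39a1 (0.41 ± 0.23) and Slc39a6 (-0.25 ± 0.19) and Slc30a7, which also loads zinc into the secretory pathway (-0.39 ± 0.23), did not pass.

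Among 8 carriers of sugars and sugar phosphates, Slc37a2 was higher and Slc37a1 lower, with a class median of 0.08. Both belong to the family of the glucose 6-phosphate translocase of the endoplasmic reticulum. Slc37a2 had 28.5 and 28.7 CPM in B cells, against 4.17 and 9.30 CPM in T cells (log2 2.09 ± 0.41, adjusted p = 0.032). T cell library 4 was again the higher of the T cell libraries. Slc37a1 had 28.1 and 30.3 CPM in B cells, against 73.8 and 57.2 CPM in T cells (log2 -1.17 ± 0.18, adjusted p = 0.018). The glucose transporters Slc2a1 and Slc2a3 had differences of 0.37 ± 0.21 and -0.25 ± 0.17, with adjusted p = 0.309 and 0.376, and Slc50a1, a sugar transporter of the Golgi, had 0.49 ± 0.20 (adjusted p = 0.178).

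Of the 3 carriers of nucleosides, 1 was higher and 1 lower. Slc29a1, the equilibrative transporter of the plasma membrane, had 32.0 and 33.4 CPM in B cells, against 67.1 and 68.0 CPM in T cells (log2 -1.05 ± 0.12, adjusted p = 0.010). Slc29a3, its relative in lysosomes, was higher, with 41 and 42.8 CPM in B cells against 24.3 and 26.6 CPM in T cells (log2 0.72 ± 0.15, adjusted p = 0.037). Slc28a2, a sodium-coupled nucleoside carrier, did not pass (0.39 ± 0.13, adjusted p = 0.118).

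Of 6 carriers of monocarboxylates and other organic solutes, 1 was higher and 2 lower. In the monocarboxylate family, Slc16a6 had 55.9 and 50.6 CPM in B cells, against 25.2 and 20.4 CPM in T cells (log2 1.22 ± 0.18, adjusted p = 0.016). Its relative Slc16a5 had 0.449 and 3.72 CPM in B cells, against 26.7 and 44.8 CPM in T cells (log2 -4.09 ± 0.85, adjusted p = 0.037). The lactate carrier Slc16a1 did not pass (-0.56 ± 0.34). Slc17a9, which loads ATP into vesicles, had 29.2 and 40.1 CPM in B cells, against 77.2 and 85.7 CPM in T cells (log2 -1.23 ± 0.19, adjusted p = 0.019).

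Among 10 carriers of the Slc35 family, which mostly bring nucleotide sugars into the Golgi apparatus and endoplasmic reticulum, 2 were higher and 1 lower. Slc35c2 had 102 and 119 CPM in B cells, against 42.8 and 55.8 CPM in T cells (log2 1.17 ± 0.18, adjusted p = 0.018). Slc35b1, an exchanger that supplies ATP to the endoplasmic reticulum, had 56.6 and 51.0 CPM in B cells, against 34.8 and 36.5 CPM in T cells (log2 0.60 ± 0.14, adjusted p = 0.047). Slc35g1 had 0.673 and 3.28 CPM in B cells, against 20.4 and 26 CPM in T cells (log2 -3.54 ± 0.68, adjusted p = 0.031).

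None of the 6 carriers of vitamins, choline and lipids passed edgeR's test, and 1 had an unadjusted p under 0.05. The choline transporter-like gene Slc44a2 was level, with 350 and 351 CPM in B cells and 351 and 348 CPM in T cells (log2 0.00 ± 0.14). The folate carrier Slc19a1 had 15.3 and 18.0 CPM in B cells, against 22.8 and 25.9 CPM in T cells (log2 -0.55 ± 0.19, adjusted p = 0.124). Of the 3 genes that are no carriers, Slc9a3r1 was lower, with 95.5 and 143 CPM in B cells against 270 and 286 CPM in T cells (log2 -1.22 ± 0.23, adjusted p = 0.030).

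In footprints, 41 of the 98 genes had enough counts to be tested, and 1 was higher and 2 lower in B cells. Over all 4771 genes tested 13.2% passed, 8.38% higher and 4.8% lower. Over the 4330 of them that were protein-coding and met the count rule, 11.1% passed, 6.65% higher and 4.41% lower. The rule did not use footprints. The share of the SLC genes that passed, 7.32%, was not above either background, and their median log2 difference was -0.03, against 0.02 over all genes. Of the 41 genes, 6 had an unadjusted p under 0.05. Among the 35 tested genes that met the count rule through all 4 RNA-seq libraries, edgeR called 0, as did DESeq2 and limma voom, and 3 had an unadjusted p under 0.05 in edgeR.

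Slc15a4 had 103 and 137 footprint CPM in B cells, from 22 and 26 counts, against 16.0 and 31.9 CPM in T cells, from 10 and 4 counts. The groups did not overlap, as in all 629 genes that passed in footprints. The difference was 5.88-fold (log2 2.55 ± 0.55, adjusted p = 0.008). Slc12a7 had 23.4 and 31.5 CPM in B cells, from 5 and 6 counts, against 204 and 104 CPM in T cells, from 127 and 13 counts (log2 -2.56 ± 0.55, adjusted p = 0.007). It stood in B cell libraries 1 and 3 at 15.2% and 20.5% of its T cell mean. Slc9a9 had 18.7 and 15.8 CPM in B cells, from 4 and 3 counts, against 101 and 55.7 CPM in T cells, from 63 and 7 counts (log2 -2.27 ± 0.60, adjusted p = 0.026). Its B cell libraries were at 23.9% and 20.1% of the T cell mean. The Slc9a9 call was lost in DESeq2 (adjusted p = 0.170), limma voom (0.101) and edgeR's fit of all 8 libraries (0.0996), and the Slc12a7 call in that fit (0.059). Without T cell footprint library 1, the deepest, none of the 3 passed (0 higher and 0 lower), and Slc9a9 could not be tested. Log2 was 1.84 for Slc15a4 (adjusted p = 0.206) and -1.94 for Slc12a7 (adjusted p = 0.232). Without B cell library 3, 2 genes were higher, with Slc25a11 added, and 6 lower, with Slc9a3r1, Slc25a36, Slc30a7 and Slc35e2 added. Without B cell library 1, 2 were higher, with Slc30a5 added, and 2 lower.

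**Figure D3:**
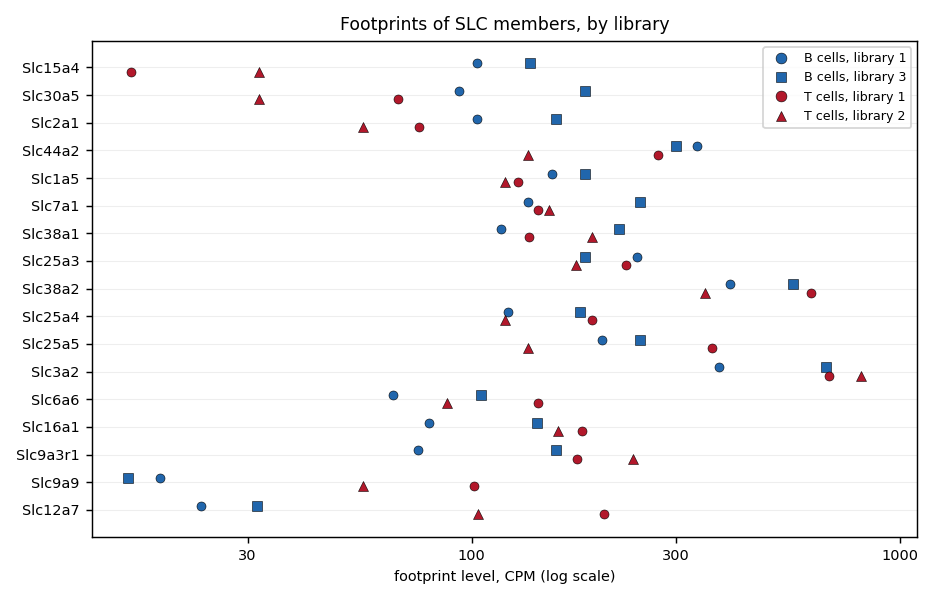
Footprint CPM on a log axis is shown by library for the 3 SLC genes past the footprint test and the 14 with the most footprints, ordered by log2 difference, B over T cells, from the top. Blue points are B cells and red points T cells, with circles for library 1, squares for B cell library 3 and triangles for T cell library 2. In Slc15a4, at the top, both blue points lie to the right of both red ones, and in Slc9a9 and Slc12a7, at the bottom, both lie to the left.

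Near the threshold, Slc35e2 had 14 and 36.8 footprint CPM in B cells, against 88.3 and 95.6 CPM in T cells (log2 -1.85 ± 0.58, adjusted p = 0.057). Its mRNA was level (log2 -0.01 ± 0.22). Slc25a11, the mitochondrial 2-oxoglutarate carrier, had 108 and 52.6 footprint CPM in B cells, against 30.5 and 23.9 CPM in T cells (log2 1.48 ± 0.55, adjusted p = 0.119). Slc30a5 had 93.6 and 184 CPM in B cells, against 67.4 and 31.9 CPM in T cells (log2 1.30 ± 0.51, adjusted p = 0.141). In these 3 genes the groups did not overlap, but the test was not passed. Slc35e2 passed in edgeR's fit of all 8 libraries (adjusted p = 0.045), with no filter on low counts (0.035) and without B cell library 3 (0.0088). Slc25a11 passed without B cell library 3 (0.029), and Slc30a5 without B cell library 1 (0.00998). Slc3a2 had 379 and 673 CPM in B cells, against 684 and 812 CPM in T cells (log2 -0.50 ± 0.43, adjusted p = 0.570). Slc38a2 had 402 and 563 CPM in B cells, against 619 and 350 CPM in T cells, with overlapping groups (log2 -0.03 ± 0.43). The footprint differences of Slc7a5, Slc1a5, Slc38a1 and Slc7a1 lay between -0.04 and 0.43, and that of Slc2a1 was 0.92 ± 0.45 (adjusted p = 0.258).

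By class, the footprint test covered 11 of 16 amino acid carriers, 8 of 23 mitochondrial carriers, 4 each of the ion, metal and Slc35 carriers, 3 of 8 sugar carriers and all 3 genes that are no carriers. It covered 2 of 3 nucleoside carriers and 1 each of the monocarboxylate and the vitamin groups. Slc16a1, the monocarboxylate carrier tested, had -0.64 (adjusted p = 0.433). Slc44a2, tested in the vitamin group, had 0.57 (adjusted p = 0.489). Slc28a2 had 0.71 (adjusted p = 0.494), Slc50a1 had 1.25 (adjusted p = 0.232) and Slc9a3r1 had -0.81 (adjusted p = 0.321).

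Of the 26 genes that passed in mRNA, 9 were tested in footprints. In 8 of these 9 the footprint difference had the sign of the mRNA difference, and 3 passed in both assays. The exception was Slc4a7, with a log2 difference of 0.82 in mRNA and -0.40 ± 0.44 in footprints. Of all 41 genes, 33 had the same sign in both assays. Pearson's r of the 2 log2 differences was 0.76 over the 41 genes and 0.84 over the 4660 genes tested in both assays, as a description across genes, which are not independent replicates.

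**Figure D4:**
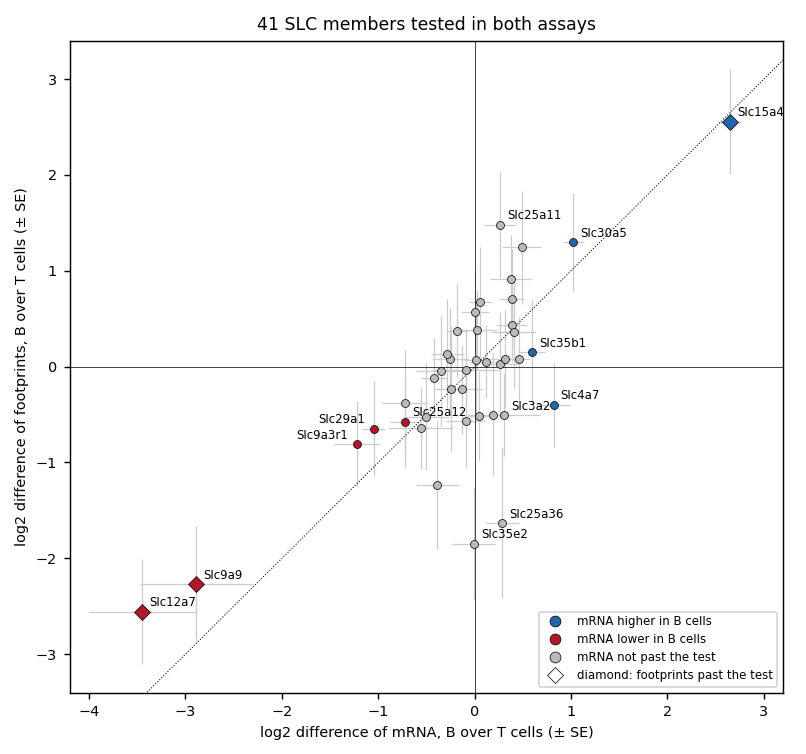
The log2 difference of footprints (vertical axis) is plotted against that of mRNA (horizontal axis), both B over T cells with SE bars, for the 41 SLC genes tested in both assays. Colour gives the mRNA call, diamonds mark the 3 genes past the footprint test, and the dotted line marks equal differences. Slc15a4 lies at 2.64 and 2.55 near the line, Slc12a7 and Slc9a9 lie at the lower left, and Slc35e2 lies below the line at an mRNA difference of -0.01.

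The other 17 genes that passed in mRNA had too few footprints to be tested. For Slc37a2, footprints were 56.2 and 21.0 CPM in B cells, against 3.21 and 7.96 CPM in T cells, without overlap. For Slc25a37 they were 51.5 and 10.5 CPM in B cells, against 6.42 and 15.9 CPM in T cells, and the groups overlapped. Slc29a3 had 46.8 and 47.3 CPM in B cells, against 17.7 and 7.96 CPM in T cells. No footprint of Slc6a19 was counted in either B cell library, against 21 and 1 in T cells. The pooled T cell level was 3.96-fold a floor of 3 counts over the B cell group. Slc35g1 had 0 footprints in B cells against 10 in T cells, 1.80-fold the same floor. Slc16a5 had 0 in B cells against 3 in T cells, too few for a ratio. The floor covers the counting error of the B cell zeros only. Counting error of the T cell footprints and spread between libraries were left out, so these folds are not lower limits.

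Some members had mRNA but hardly any footprints. Slc26a10 averaged 322 CPM of mRNA in B cells and 427 CPM in T cells, yet had 0 footprints in all 4 libraries, which allows up to 7.43 CPM in B cells and 4.01 CPM in T cells. Slc26a10 overlaps B4galnt1 on chromosome 10, so its RNA-seq counts are uncertain. Slc38a6 averaged 62.5 CPM of mRNA in B cells and 112 CPM in T cells, with 1 footprint in B cells against 3 in T cells. It overlaps Trmt5.

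Translational efficiency was compared as the interaction of assay and cell type in 1 model of all 8 libraries. None of the 41 SLC genes passed in edgeR's quasi-likelihood test, and 0.0% of the 4660 genes tested did. At an unadjusted p under 0.05 there were 3 SLC genes and 355 genes in all, and DESeq2 and limma voom called 0 SLC genes too. Slc25a11 had the smallest p among positive differences (log2 1.25 ± 0.50, unadjusted p = 0.037, adjusted p = 0.642). Slc4a7 had the smallest among negative ones (log2 -1.20 ± 0.35, unadjusted p = 0.010, adjusted p = 0.642). Slc35e2 was the other gene under 0.05, at -1.83 ± 0.61. For Slc15a4 the difference was -0.00 ± 0.66, for Slc12a7 0.86 ± 0.94 and for Slc9a9 0.64 ± 0.99. With standard errors of this size, equal efficiency in B and T cells was not shown.

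Within each cell type, the log2 ratio of footprints to mRNA was taken for the 41 SLC genes. It ran from -1.70 to 2.18 in B cells and from -2.17 to 2.24 in T cells. The medians were -0.09 and -0.18, against 0.01 and -0.04 over all genes. Over protein-coding genes that met the same count rule they were -0.06 and -0.08. Genes with too few footprints for the test are left out, so the low end is cut off by that filter. The lactate carrier Slc16a1 was at the top, with 2.18 ± 0.41 in B cells and 2.24 ± 0.37 in T cells, higher than 97.1% and 97.2% of genes tested. Slc7a1 had 1.76 ± 0.31 and 1.37 ± 0.31, Slc38a2 had 1.05 and 0.98, and Slc3a2 had 0.77 and 1.56 in B and T cells. At the low end were Slc28a2 with -1.65 ± 0.29 in B cells and -1.98 ± 0.29 in T cells, and Slc20a1 with -1.64 ± 0.38 and -2.02 ± 0.35. The abundant mitochondrial carriers Slc25a3 and Slc25a5 were also low, with -1.55 and -1.26 in B cells, against -1.51 and -1.17 in T cells. Transcript and coding length enter these ratios, since footprints fall on coding sequence and RNA-seq reads on the whole transcript, and lengths were not used here.

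**Figure D5:**
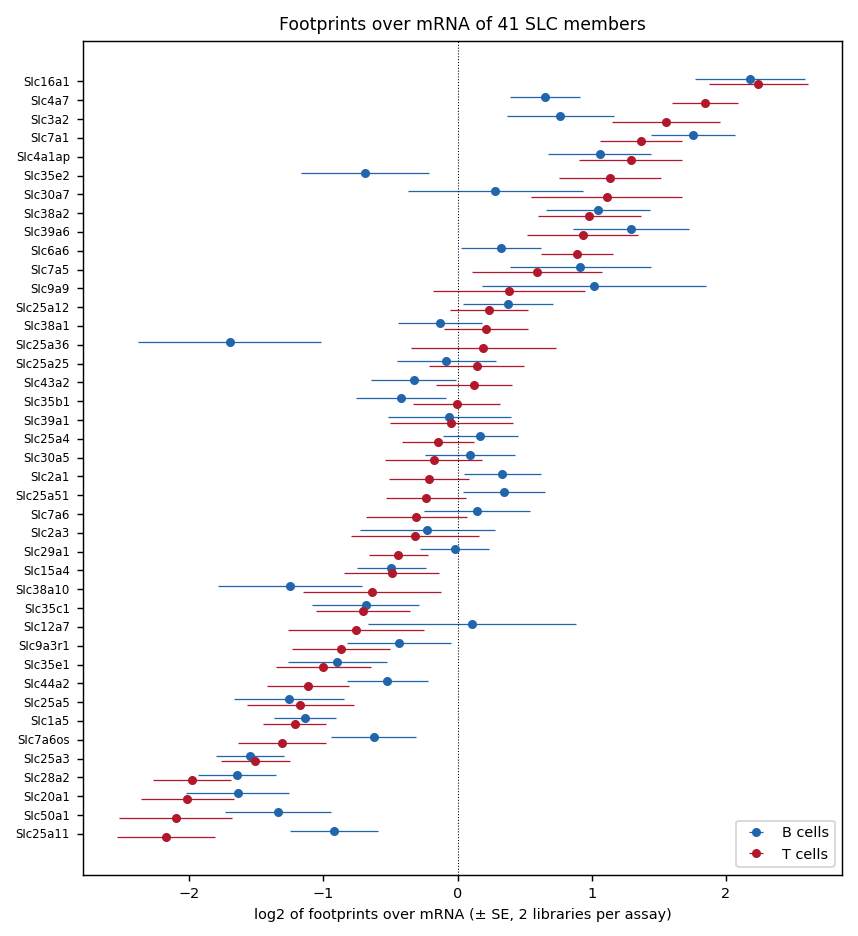
The log2 ratio of footprints to mRNA with its SE is shown for the 41 SLC genes tested, in B cells (blue) and T cells (red), ordered by the T cell value. The 2 cell types lie close together for most genes, from Slc16a1 above 2 at the top to Slc25a11 at -2.17 in T cells at the bottom. Slc35e2 and Slc25a36 stand furthest apart, with -0.69 and -1.70 in B cells, against 1.14 and 0.19 in T cells. Slc25a36 rests on 1 and 8 footprints in B cells, and its unadjusted p was not under 0.05. No difference between the cell types passed the test in any of the 41 genes.

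Transporters and regulators outside the Slc symbols were read from lists chosen with earlier results of these data known. The count rule was not applied to them, so the share to read them against is the 18.5% of all genes tested that passed in mRNA. Of 30 tested genes of the SLC superfamily under other symbols, 4 were higher and 3 lower in mRNA (23.3%). Unc93b1, which brings nucleic acid-sensing Toll-like receptors to endosomes, had 909 and 982 CPM in B cells, against 36.1 and 71.3 CPM in T cells (log2 4.14 ± 0.40, adjusted p = 0.007). Its footprints were also higher (log2 3.94 ± 0.47). Spns2, the exporter of sphingosine 1-phosphate, was higher in mRNA (log2 5.94 ± 0.63, adjusted p = 0.009), as were Spns3 and Mfsd12, and Mfsd6, Flvcr1 and Sfxn3 were lower. Of 15 tested chaperones and regulators, 3 were higher and 2 lower in mRNA (33.3%). Emb, a chaperone that brings monocarboxylate carriers to the plasma membrane, had 11.8 and 28.6 CPM in B cells, against 238 and 230 CPM in T cells (log2 -3.53 ± 0.45, adjusted p = 0.013). Its footprints were lower too (log2 -4.50 ± 0.66). Of 26 tested ATP-binding cassette transporters, 3 were higher and 6 lower in mRNA (34.6%), among them Abca1, the cholesterol exporter (log2 1.85 ± 0.19), and Abcb1a, a drug efflux pump (log2 -2.47 ± 0.20). The median log2 differences of the 3 lists were 0.07, 0.24 and -0.16.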

How the data were processed

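The deposited values are counts of reads per gene, made by the authors, 1 table per library, over 53801 Ensembl gene IDs. Per the submitters' processing notes, FastQC, Bowtie2, TopHat and HTSeq were used with the mm10 build, and versions, settings, annotation and strand were not given in the sources used here. Per the labels' protocols, RNA-seq libraries were made with a TruSeq kit and footprints from nuclease-treated monosomes. Symbols came from a names table (53620 IDs matched), and gene class, overlaps, coordinates and promoter windows from RefSeq's GRCm38.p6 tables (38371 IDs with a class, all 98 SLC genes among them, 73 with a promoter window). Of the count columns 0 were left unused.

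Counts were tested on the whole table in edgeR 4.0.16 under R 4.3.3, by the quasi-likelihood test with TMM scaling and filterByExpr (minimum count 10, total 15), and p-values were adjusted by Benjamini-Hochberg over all genes tested, at a threshold of 0.05. Each assay was fitted on its 4 libraries (2 residual degrees of freedom) and translational efficiency on all 8 (4). Log2 differences are B over T cells, values after ± are standard errors, and CPM uses TMM-scaled totals. There were 2 libraries per group throughout. Libraries of the same group differed beyond sampling noise, with chi-square over its degrees of freedom from 4.43 to 29.4.

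The SLC genes, their substrate classes and all lists were chosen with earlier results of these data known. The classes follow family numbers by textbook knowledge. For 3 genes that are no carriers and for Slc14a1 they were set after the gene list was seen. The genes named were, per direction, up to 8 with the largest difference past the threshold without overlap of libraries, the gene with the smallest p per class and assay, the smallest p per direction in translational efficiency, and 31 genes named whatever their result. Other genes past the mRNA test, and Slc12a4, Slc25a36, Slc26a10, Slc38a6 and the genes with opposite signs in the assays, were named after their values were seen. Some SLC genes stay in the tests and counts but are not reported here by name. Levels per length could not be computed, so levels are not compared between genes. The other tools tried were DESeq2 1.42.0 and limma 3.58.1, and the tests were tested on simulated data.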

Additional observations from a re-analysis of the deposited data

Results flagged for a closer look

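In 5 of the 57 SLC genes with too few footprints for the test of translational efficiency, mRNA and footprints lay on opposite sides in every library, without overlap. With 2 libraries per group such a pattern can arise without any true difference, and no share over all genes was at hand for it. Slc12a9 met the count rule through B cells only and Slc19a1 through T cells only, which fixed the direction of their raw RNA-seq counts. The difference between the assays was not tested, none of the 5 passed the mRNA test, and each rests on few footprints.

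Slc19a1, the folate carrier, had lower mRNA in both B cell libraries, while its footprint CPM in B cells was 3.19 times that in T cells, from 2 and 5 footprints in B cells, against 2 and 1 in T cells. Slc35b4, a nucleotide sugar carrier of the Golgi, likewise had lower mRNA in B cells and a footprint ratio of 3.11, from 9 and 9 footprints in B cells, against 8 and 2 in T cells. The other 3 had higher mRNA in both B cell libraries. Slc25a1, the citrate carrier, had a footprint ratio, B over T cells, of 0.453. Slc25a20, the carrier of acylcarnitines, had 0.567. Slc12a9, a relative of the chloride cotransporters, had 0.193, from 0 and 1 footprints in B cells, against 12 and 1 in T cells.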

How the results depend on the processing

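For want of footprint counts 57 of 98 SLC genes were not tested in footprints. With RNA-seq counts thinned to match the shallowest footprint library 32 genes were tested and 4 were higher and 3 lower in mRNA. In a test against a 1.5-fold change the mRNA counts were 7 higher and 3 lower. Choosing genes by 400 counts gave 8 and 7, and by 200 counts in all 4 libraries 7 and 6. Leaving out 1 library gave 7 to 12 higher and 8 to 9 lower. In footprints, DESeq2, limma voom, a fit of all 8 libraries and the 400-count rule each gave 1 lower. In the fit of all 8 libraries this gene was Slc35e2, and neither Slc12a7 nor Slc9a9 passed there. No filter gave 2 higher and 4 lower, the rule of 100 counts 2 higher, and 200 counts in all 4 libraries 0 and 0. Leaving out 1 library gave 0 to 2 higher and 0 to 6 lower. Slc6a19 mRNA had 0.109 in DESeq2.

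Over all alternatives run for single genes, 0 calls reversed. Of 1404 mRNA values 70 lost and 22 gained a call, of 573 footprint values 6 and 9, and of 619 values of translational efficiency 0. No scaling moved the median of all genes by 0.1.

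Labels share only the number 1 between B and T cells, with no statement of what it marks. Deviations of the libraries numbered 1 correlated at 0.564 in RNA-seq and 0.105 in footprints. With a replicate block the counts were 21 higher and 18 lower in mRNA, 1 and 3 in footprints, and 0 and 0 in translational efficiency. In mRNA and in footprints the block leaves 1 residual degree of freedom. The share of all genes that passed with the block was not at hand. The 18.5% in mRNA belongs to the fit without it, so the rise says nothing particular about SLC genes. Among carriers described above as not past the mRNA test, Slc2a1 (adjusted p = 0.047), Slc15a3 (0.023), Slc20a1 (0.048), Slc25a4 (0.047), Slc38a1 (0.036) and Slc50a1 (0.039) passed with the block, as did Slc35e2 in footprints (0.041).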
